A study of Homo sapiens with 6 samples.

Results

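The MYC, MAX and MXD network factors were followed in the human ovarian cancer line A2780 in RNA-seq libraries labelled GPT2si (3 libraries) and GPT2sinc (3 libraries). The 10 genes were taken by symbol from 60564 rows of the deposited count table: the MYC family (MYC, MYCN, MYCL), their partner MAX, the MAX-binding antagonists MXD1, MXI1, MXD3, MXD4 and MNT, and the related factor MLX. All 10 were found, and all 10 passed the low-count filter that left 17006 genes to test. By the series title the study is about a lack of GPT2, the mitochondrial alanine aminotransferase, and GPT2si and GPT2sinc are given as the genotypes of the same line, with no other agent named. The labels do not spell out si and sinc, and they give no time point and no silencing sequence. Nothing says that replicates are separate cultures, so p-values below reflect library-to-library spread alone, which may be technical. In bulk RNA, fewer cells that express a gene and less of its RNA per cell cannot be told apart.

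These proteins carry a basic helix-loop-helix leucine zipper and bind DNA in pairs. MYC pairs with MAX on E-box sequences and recruits coactivators to genes of growth and ribosome production, while MXD proteins, MXI1 and MNT pair with the same MAX and recruit SIN3 and histone deacetylase corepressors to the same kind of site. MLX is a MAX-like hub that pairs with MXD1, MXD4 and MNT and with the sugar-sensing factors MLXIP (MondoA) and MLXIPL (ChREBP). MXI1 is known as a gene induced by hypoxia-inducible factors (HIF).

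Because MXI1 was the one member past the test, the 250 bases before each of its 3 RefSeq starts are shown first, from RefSeq on GRCh38.p14, plus strand. Capitals mark the core letters of HIF sites, ACGTG or GCGTG on either strand.
MXI1 start A, chr10:110207355-110207604: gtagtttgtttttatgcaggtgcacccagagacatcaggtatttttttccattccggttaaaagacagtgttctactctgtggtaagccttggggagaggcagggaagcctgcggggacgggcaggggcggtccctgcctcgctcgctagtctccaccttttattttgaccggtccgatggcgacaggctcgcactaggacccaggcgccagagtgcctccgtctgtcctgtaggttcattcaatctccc
MXI1 start B, chr10:110209981-110210230: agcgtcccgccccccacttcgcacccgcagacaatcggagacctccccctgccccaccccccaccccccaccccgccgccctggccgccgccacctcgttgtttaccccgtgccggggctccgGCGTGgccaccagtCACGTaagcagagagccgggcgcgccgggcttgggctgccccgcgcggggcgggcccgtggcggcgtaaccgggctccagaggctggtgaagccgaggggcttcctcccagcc
MXI1 start C, chr10:110225746-110225995: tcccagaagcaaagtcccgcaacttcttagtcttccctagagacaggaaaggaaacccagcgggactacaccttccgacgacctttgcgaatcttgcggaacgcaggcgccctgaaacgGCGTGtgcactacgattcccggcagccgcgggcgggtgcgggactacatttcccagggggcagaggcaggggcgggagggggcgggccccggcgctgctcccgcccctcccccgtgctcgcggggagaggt

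Start B holds 2 such cores, beginning 127 and 113 bases before the start, start C holds 1 at 131 bases, and start A holds none of these letters. The same search matched 43.2% of 35116 RefSeq windows of 250 bases and 7 of 12 windows of the 9 members with an entry (MYC had none), so a match is common. The deposited counts are per gene and do not tell the 3 starts apart. The canonical E-box CACGTG, to which MYC, MXD proteins, MNT and MLX partners bind as dimers, occurred in 3 of the 12 windows and in 6.34% of all windows, and its letters contain the HIF core. These E-boxes, in capitals, lie before MXD4 (minus strand, 238 bases before the start), MNT (minus strand, 193 bases) and MLX (plus strand, 50 bases), and none of these genes passed the test. A match describes the letters of the window and is not a measured site.
MXD4, chr4:2262330-2262359: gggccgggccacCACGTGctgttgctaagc
MNT, chr17:2401236-2401265: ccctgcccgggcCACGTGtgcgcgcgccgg
MLX, chr17:42567038-42567067: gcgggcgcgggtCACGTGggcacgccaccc

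Libraries held between 41931162 and 50882329 counts. GPT2 was at 93.8 to 96.9 CPM (counts scaled by library size and TMM factors) in the GPT2si libraries and at 219 to 236 CPM in the GPT2sinc libraries. Of 7 ovarian carcinoma markers, KRT8, KRT18 and EPCAM were detected well enough to test and did not pass, WT1 was at 0 counts in all libraries, and CDH1, PAX8 and MUC16 had at most 22 counts in any library. The summed level of the 7 ovarian markers was 64.4 to 80.2 CPM in the GPT2si libraries and 57.3 to 59.9 CPM in the GPT2sinc libraries, and its part in the results was not tested. The sums of 5 fibroblast markers (520 to 563 against 516 to 539 CPM), 5 leukocyte markers (4.57 to 8.36 against 4.04 to 5.32 CPM, nearly all CD68, with CD3E at 0) and 4 endothelial markers (0.0994 to 0.263 against 0.043 to 0.299 CPM, with CDH5 at 0) overlapped, and 0 of these genes passed. GPT2si 2 stood apart as a whole library: chi-square per degree of freedom over genes was 37.9 and 46.3 against its own group, where GPT2si 1 and 3 differed by 7.71, and 51.6 to 89.4 against GPT2sinc libraries. It also had the lowest TMM factor (0.9299) and the fewest genes detected (21997). Its part in the results was not tested beyond leaving it out. Values without it are given for the members and the named list genes whose call changed when it was left out. They are also given for MXI1, MXD1, MXD4, MLX and MAX.

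MXI1 fell, and it was the one member of 10 that passed the test over all genes (edgeR quasi-likelihood with Benjamini-Hochberg adjustment, threshold 0.05). In that test 0.841% of all tested genes were called lower and 0.576% higher. In 4 members every GPT2si library lay below every GPT2sinc library (MXI1, MXD1, MXD3 and MYCL), and in 2 members every GPT2si library lay above (MYC and MAX). Among all tested genes 13.2% separated downwards and 14.9% upwards, so separation alone is common in these data. The same 4 and 2 members had an unadjusted p under 0.05, against 9.27% of all genes lower and 10.3% higher. The median log2 fold change was −0.18 over the 10 members and −0.01 over all tested genes.

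**Figure D1:**
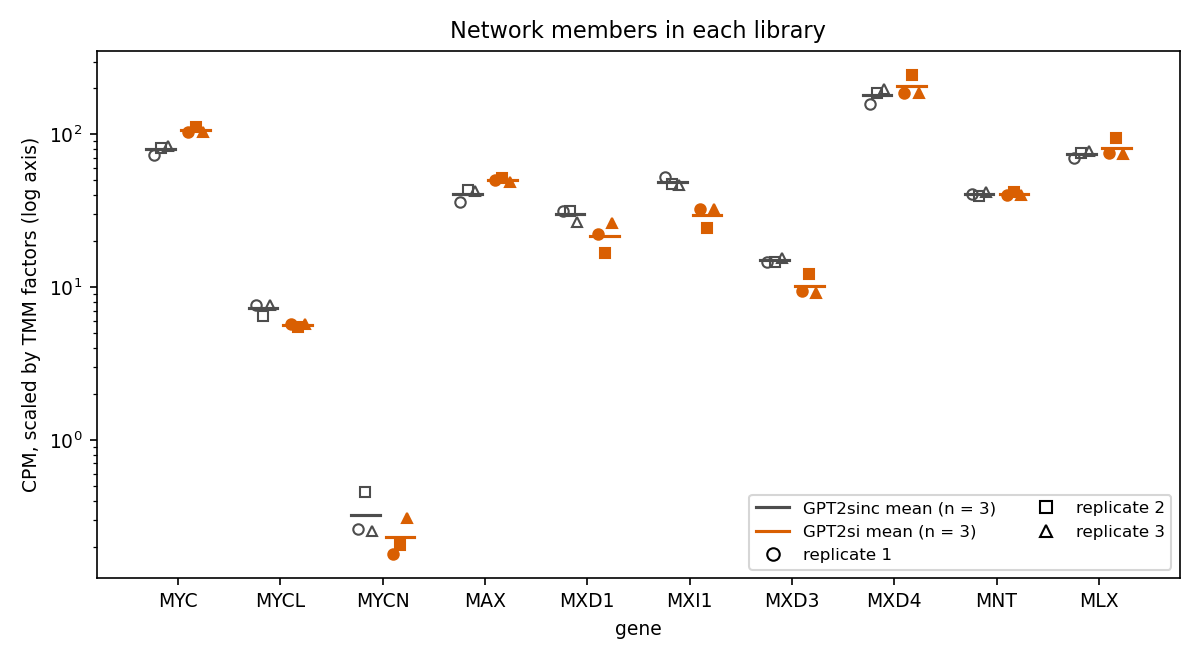
Level of each network member in CPM on a log axis, with open symbols for the 3 GPT2sinc libraries, filled symbols for the 3 GPT2si libraries, 1 symbol shape per replicate number and a line at the group mean. MXI1, MXD1, MXD3 and MYCL sit lower in each GPT2si library, MYC and MAX sit higher, and MXD4, MNT, MLX and MYCN overlap; MYCN lies below 0.5 CPM in all libraries.

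MXI1 (ENSG00000119950; chromosome 10, 110207605 to 110287365, plus strand, GRCh38 in GENCODE 29; protein coding), an antagonist that competes with MYC for MAX, had 2413, 2188 and 2024 counts in GPT2sinc 1 to 3 and 1627, 956 and 1472 in GPT2si 1 to 3. Its level was 52.6, 47.1 and 46.5 CPM in the GPT2sinc libraries and 32.4, 24.5 and 32.3 CPM in the GPT2si libraries. The groups did not overlap, and GPT2si 2 was the lowest. The means were 48.7 ± 3.36 and 29.7 ± 4.51 CPM (SD, n = 3 each), a log2 fold change of −0.71 (SE 0.13; edgeR adjusted p = 0.0363), which is 0.61 of the GPT2sinc level. Without GPT2si 2 the log2 fold change was −0.61 and the call held (adjusted p = 0.0111). Leaving out GPT2si 1 or any 1 of the GPT2sinc libraries ended the call (adjusted p = 0.116 to 0.173) at log2 fold changes of −0.66 to −0.79, as did testing with no low-count filter (adjusted p = 0.0726).

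MXD1 and MXD3, antagonists of the MXD family known from differentiating and from dividing cells respectively, were lower in each GPT2si library without passing. MXD3 (ENSG00000213347; chromosome 5, 177301461 to 177312757, minus strand) was at 14.7, 14.6 and 15.6 CPM in the GPT2sinc libraries and at 9.41, 12.1 and 9.20 CPM in the GPT2si libraries. Its GPT2sinc libraries lay close together (15.0 ± 0.56 CPM), and GPT2si 2 came nearest to them. Its difference was −0.55 on the log2 scale (SE 0.14; adjusted p = 0.0857), and without GPT2si 2 it was −0.70 and past the threshold (adjusted p = 0.0119). MXD1 (ENSG00000059728; chromosome 2, 69897688 to 69942945, plus strand) was at 31.7, 31.7 and 26.5 CPM against 22.2, 16.7 and 26.1 CPM. GPT2sinc 3 and GPT2si 3 nearly met, and GPT2si 2 was again the lowest, so the difference of −0.47 (SE 0.16; adjusted p = 0.159) shrank to −0.33 without it (adjusted p = 0.131). Exons of MXD3 overlap RAB24 on the same strand and PRELID1 on the other, and exons of MXD1 overlap SNRNP27, so both values are uncertain where reads are shared. Exons of MXI1 overlap AL360182.2, those of MAX AL139022.1, those of MNT AC006435.1 and those of MYCL AL033527.2, each on the other strand. Exons of MXD4 overlap MIR4800 on the same strand, and these 5 genes carry the same limit.

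MXD4, MNT and MLX overlapped between the groups. MXD4 (ENSG00000123933; chromosome 4, 2247432 to 2262294, minus strand), the most abundant antagonist, was at 158, 186 and 198 CPM in the GPT2sinc libraries and at 187, 246 and 187 CPM in the GPT2si libraries. The groups overlapped, and the difference of 0.19 (SE 0.13; adjusted p = 0.427) was 0.04 without GPT2si 2. MNT (ENSG00000070444; chromosome 17, 2384060 to 2401118, minus strand), the antagonist present in most cell types, was at 40.9, 39.7 and 41.8 CPM against 40.1, 42.1 and 39.8 CPM. Its log2 fold change was −0.01 (SE 0.09; adjusted p = 0.979), the smallest in size of the 10 members. MLX (ENSG00000108788; chromosome 17, 42567068 to 42573239, plus strand; exons overlapping PSMC3IP on the other strand) was at 69.9, 75.9 and 78.2 CPM against 75.5, 94.2 and 74.0 CPM. Its difference of 0.12 (SE 0.11; adjusted p = 0.573) rested on GPT2si 2, without which it was −0.01.

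MYC was the most abundant gene of its family by far and was higher in each GPT2si library, just short of the threshold. MYC (ENSG00000136997; chromosome 8, 127735434 to 127741434, plus strand; protein coding) had 3386, 3786 and 3675 counts in GPT2sinc 1 to 3 and 5206, 4313 and 4720 in GPT2si 1 to 3. Its level was 73.8, 81.5 and 84.5 CPM against 104, 111 and 104 CPM, and the groups were clearly apart. The means were 79.9 ± 5.50 and 106 ± 4.09 CPM (SD, n = 3 each), a log2 fold change of 0.41 (SE 0.09; adjusted p = 0.0586), or 1.33 times the GPT2sinc level. It passed without GPT2si 2 (0.36, adjusted p = 0.026) and missed the threshold without any other single library (adjusted p = 0.0784 to 0.282).

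MYCL and MYCN, the family members known from lung and neural tumours, contributed little. MYCL (ENSG00000116990; chromosome 1, 39895426 to 39902256, minus strand) was at 7.67, 6.50 and 7.58 CPM in the GPT2sinc libraries and at 5.73, 5.49 and 5.69 CPM in the GPT2si libraries. It was thus lower in each GPT2si library, opposite to MYC, with a log2 fold change of −0.36 (SE 0.14; adjusted p = 0.199). MYCN (ENSG00000134323; chromosome 2, 15940564 to 15947007, plus strand) had 12, 21 and 11 counts against 9, 8 and 14, and its difference could not be resolved at this depth (−0.48, SE 0.45; adjusted p = 0.58). MYC held 90.3%, 92.1% and 91.5% of the counts of the 3 family genes in the GPT2sinc libraries and 94.6%, 95.1% and 94.5% in the GPT2si libraries.

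MAX, the shared partner of MYC and the antagonists, was higher in each GPT2si library without passing. MAX (ENSG00000125952; chromosome 14, 65006174 to 65102695, minus strand) was at 36.1, 43.4 and 42.7 CPM in the GPT2sinc libraries and at 50.6, 52.1 and 48.8 CPM in the GPT2si libraries. GPT2sinc 1 was the lowest library, and the 3 GPT2si libraries lay within a narrow range. The difference came to 0.31 on the log2 scale (SE 0.10; edgeR adjusted p = 0.148), and 0.23 without GPT2sinc 1 (adjusted p = 0.486). Without GPT2si 2 it was 0.27 (edgeR adjusted p = 0.117).

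**Figure D2:**
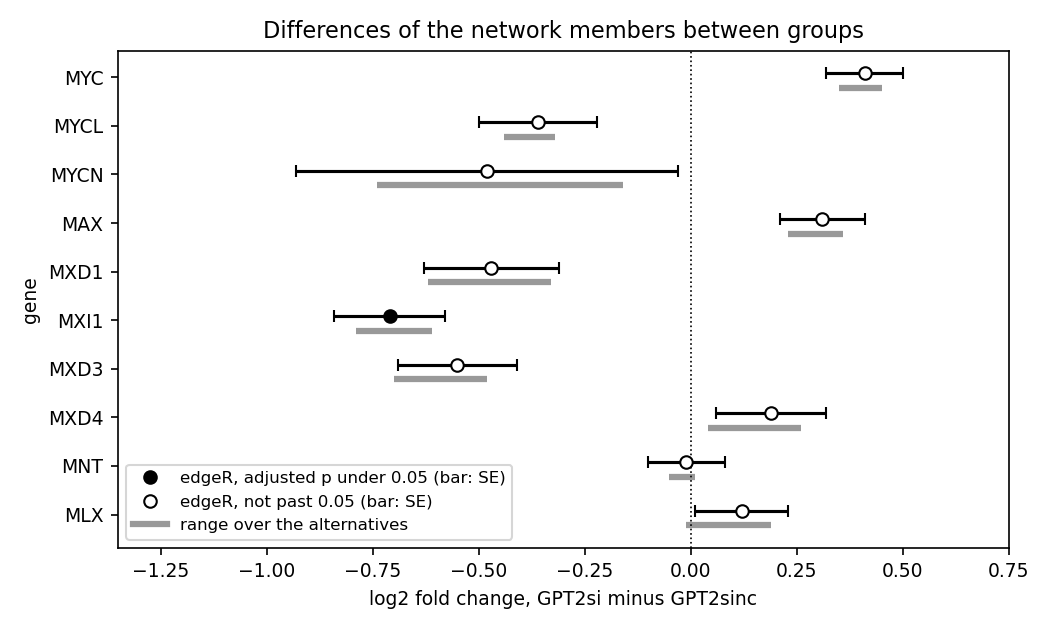
Log2 fold change of GPT2si minus GPT2sinc for each member from the edgeR fit (points, with SE bars; filled where the adjusted p is under 0.05), with a grey bar for the range over the alternatives. MXI1 at −0.71 is the one filled point, and its range of −0.79 to −0.61 stays well below 0, as that of MYC (0.35 to 0.45) stays above.

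Which members were called depended on the test. With the DESeq2 Wald test, which called 3.28% of all genes higher and 2.87% lower, MYC was higher (adjusted p = 0.00403) and MXI1 and MXD3 were lower (adjusted p = 2.44e-05 and 0.0127). With edgeR offsets for GC content and length, which called 7.32% of genes higher and 4.12% lower, MYC and MAX were higher and MXI1, MXD3 and MXD1 were lower. Without GPT2si 2, where 2.15% were called higher and 2.62% lower, the called members were MYC, MXI1 and MXD3. No alternative called MYCL, MYCN, MXD4, MNT or MLX, and no alternative turned the direction of MYC, MAX, MXI1, MXD1, MXD3 or MYCL.

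The ratio of 2 genes within a library does not depend on how libraries are scaled, and it placed MYC further above MXI1 in each GPT2si library. There were 1.40, 1.73 and 1.82 MYC counts per MXI1 count in GPT2sinc 1 to 3 and 3.20, 4.51 and 3.21 in GPT2si 1 to 3. Per MXD3 count, MYC had 5.01 to 5.57 counts in the GPT2sinc libraries and 9.14 to 11.3 in the GPT2si libraries, and per MXD1 count 2.33 to 3.19 and 3.97 to 6.62. Against MNT the ratio was 1.80 to 2.05 and 2.58 to 2.63, so that all of these pairs separated the groups. Against MXD4 it was 0.427 to 0.466 and 0.450 to 0.554, which overlap, with GPT2si 2 inside the GPT2sinc range. MYC and MAX kept nearly the same ratio, 1.88 to 2.04 in the GPT2sinc libraries and 2.05 to 2.12 in the GPT2si libraries. These ratios follow from members whose direction is given above and are a description, with no test.

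**Figure D3:**
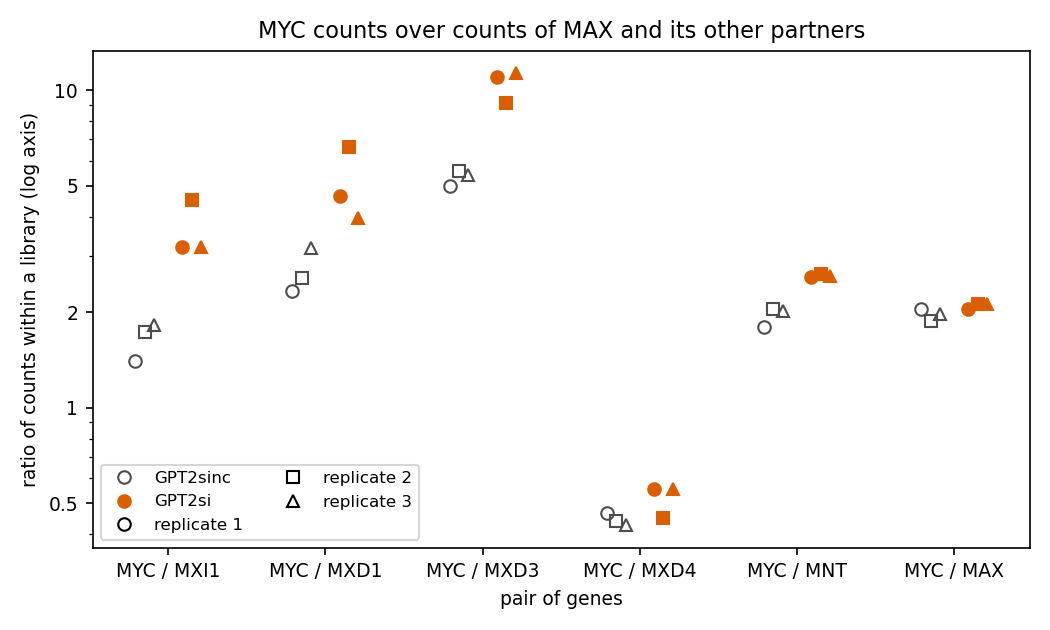
MYC counts divided by the counts of each named gene in the same library, on a log axis, with open symbols for GPT2sinc and filled symbols for GPT2si and 1 shape per replicate number. The 3 GPT2si libraries sit above the 3 GPT2sinc libraries for MXI1, MXD1, MXD3 and MNT and only slightly so for MAX, and the groups overlap for MXD4.

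To compare genes with each other, CPM was divided by the length of the merged exons in GENCODE 29. In the GPT2sinc libraries the order of these levels was MYC (26.6 ± 1.83 CPM per kb), MXD4 (25.6 ± 2.86), MLX (17.5 ± 1.02), MXI1 (10.6 ± 0.73), MAX (9.20 ± 0.91), MXD1 (4.72 ± 0.48), MNT (4.68 ± 0.12), MXD3 (2.91 ± 0.11), MYCL (1.43 ± 0.13) and MYCN (0.124 ± 0.04; SD, n = 3). MYC and MXD4 overlapped in this order, as did MXD1 and MNT, and the other neighbours did not. In the GPT2si libraries MAX (11.4 ± 0.37 CPM per kb) stood above MXI1 (6.45 ± 0.98), and MNT (4.66 ± 0.14) above MXD1 (3.41 ± 0.74). MXD4 made up 48.3% to 55.9% of the summed level per kb of the 5 antagonists in the GPT2sinc libraries and 60.3% to 69.7% in the GPT2si libraries, while MXI1 made up 20.2% to 24.6% and 10.7% to 16.2%. The sum of the 5 antagonists itself overlapped between the groups, at 46.4 to 50.1 against 43.4 to 49.9 CPM per kb, and without MXD4 it did not, at 22.1 to 24.0 against 15.1 to 17.5 CPM per kb. MXD4 is the antagonist with a positive log2 fold change. The separation without MXD4 thus follows from the directions given above and is a description, with no test. The order depends on the length used: divided by the longest transcript, MXD4 (42.7 ± 4.77 CPM per kb) came before MYC (33.8 ± 2.32) in the GPT2sinc libraries. By that length MNT (8.17 ± 0.214) and MXD3 (6.58 ± 0.245) also came before MXD1 (5.37 ± 0.543) there, and MXI1 overlapped MAX.

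Genes with the most similar pattern were sought among 10165 protein-coding genes with a mean of at least 5 CPM, as those with the smallest root mean square distance between log2 CPM values of the 6 libraries, each gene centred on its own mean. Nearest to MXI1 were BNIP3, a mitophagy receptor gene also known to be induced by HIF (distance 0.038, log2 fold change −0.75), CFAP251 (0.0489, −0.66) and SLC8A2, a sodium-calcium exchanger gene (0.05, −0.69). Nearest to MYC were HSPA1A, a stress-inducible HSP70 gene with a near-identical copy (0.0194, log2 fold change 0.43), ARF4, a small GTPase gene of the Golgi (0.0221, 0.37), and ZPR1, a zinc finger protein gene (0.0232, 0.40).

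Corepressors and the remaining MAX and MLX partners showed no call. Of 17 such genes 0 passed edgeR and 0 passed DESeq2 (unadjusted edgeR p under 0.05: 3 higher, 1 lower), and their median log2 fold change was 0.02. Of all tested genes 10.3% were higher and 9.27% lower by the unadjusted p. DESeq2 called 3.28% of them higher and 2.87% lower, and edgeR 0.576% and 0.841%. MLXIP was at 72.3, 77.9 and 78.4 CPM in the GPT2sinc libraries and at 87.3, 94.2 and 85.0 CPM in the GPT2si libraries (0.22, SE 0.09; adjusted p = 0.199). MLXIPL was lower in each GPT2si library, at 10.7, 10.7 and 9.17 against 7.44, 8.18 and 7.40 CPM (−0.41, SE 0.13; adjusted p = 0.143). L3MBTL2 and E2F6, which form a repressive Polycomb complex with the MAX partner MGA, were at 0.39 (SE 0.12) and 0.31 (SE 0.11). The abundant corepressor subunits HDAC1 and RBBP4 were at 0.10 and 0.02 (SE 0.08 each).

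Among coactivators of MYC most values were above 0, with no call. Of 18 genes 0 passed edgeR and 2 passed DESeq2 (unadjusted edgeR p under 0.05: 6 higher, 0 lower), 16 had a positive log2 fold change, and the median was 0.15. By the unadjusted p 10.3% of all genes were higher and 9.27% lower. DESeq2 called 3.28% higher and 2.87% lower, and edgeR 0.576% and 0.841%. In 9 of the 18 every GPT2si library lay above every GPT2sinc library, as in 14.9% of all genes. The largest difference was that of KAT2A, the GCN5 acetyltransferase, at 67.5, 73.8 and 72.7 against 90.6, 118 and 88.8 CPM (0.47, SE 0.12, edgeR adjusted p = 0.0838). RUVBL1, a helicase-like ATPase, came next at 98.7, 122 and 128 against 159, 179 and 142 CPM (0.46, SE 0.12, edgeR adjusted p = 0.0945). HCFC1 and WDR5, chromatin cofactors that bind MYC, were at 0.37 and 0.31 (SE 0.11 and 0.09). Without GPT2si 2 the called coactivator was KAT2A (0.32, adjusted p = 0.0314), and DESeq2 called KAT2A and RUVBL1 (adjusted p = 0.0133 and 0.0197).

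Of 20 genes for turnover of MYC protein, 0 passed edgeR and 0 passed DESeq2 (unadjusted edgeR p under 0.05: 2 higher, 0 lower), and the median was −0.01. These counts stand beside 10.3% higher and 9.27% lower among all tested genes by the unadjusted p. DESeq2 called 3.28% of all tested genes higher and 2.87% lower, and edgeR 0.576% and 0.841%. The ubiquitin ligase gene TRIM32 was at 0.32 (SE 0.11; adjusted p = 0.143) and USP36, a nucleolar deubiquitinase gene, at 0.28 (SE 0.10; adjusted p = 0.164). HUWE1, a ubiquitin ligase gene and the most abundant of the list, was at 618, 672 and 623 CPM against 654, 708 and 680 CPM (0.09, SE 0.08).

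Genes that MYC is known to activate held 7 calls. Of 64 such genes 6 rose and 1 fell, where 0.576% and 0.841% of all genes were called, and by the unadjusted p 38 were higher and 2 lower, against 10.3% and 9.27% of all genes. Positive values were found in 55 of 64 and in 8161 of all 17006 tested genes, and the median log2 fold change was 0.30 against −0.01 for all tested genes. This list, like the others, was chosen with earlier results of these data known. The shares therefore describe the list and are not an independent test of it. PPRC1, a coactivator gene of mitochondrial biogenesis, rose from 46.0, 52.7 and 55.1 CPM to 81.5, 105 and 82.4 CPM (0.81, SE 0.12; adjusted p = 0.023). RRP9, which acts in processing of ribosomal RNA, rose from 16.2, 20.9 and 21.8 CPM to 33.7, 44.1 and 28.8 CPM (0.85, SE 0.17; edgeR adjusted p = 0.0487). Its edgeR call was lost with DESeq2 size factors (adjusted p = 0.0536), upper-quartile factors (0.0531) and no low-count filter (0.118). With limma-voom the RRP9 call was also lost (adjusted p = 0.0568). MYBBP1A, a nucleolar protein gene, rose by 0.65 (SE 0.13), and the ribosome assembly genes MRTO4, NOP56 and NOP2 also rose, the last named after its values were seen as the remaining call (0.74, SE 0.15; edgeR adjusted p = 0.0499). The calls of MYBBP1A and NOP2 were lost with DESeq2 size factors and with limma-voom, and that of NOP2 also with upper-quartile factors. With no low-count filter no gene of the list was called.

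The member of this list that edgeR called lower was HK2, a hexokinase gene that HIF also induces. It was at 222, 207 and 198 CPM in the GPT2sinc libraries and at 158, 122 and 152 CPM in the GPT2si libraries (−0.54, SE 0.11; edgeR adjusted p = 0.0484). Its call was lost with DESeq2 size factors, limma-voom and no low-count filter. LDHA, named after its values were seen, was also lower in each GPT2si library without passing (−0.36, SE 0.10; edgeR adjusted p = 0.108), and DESeq2 called it. Negative values were found in 9 of the 64 genes. Genes that HIF induces were not examined as a list, and a part of HIF in these values was not tested. With each gene centred on its own mean, the median log2 CPM of the 64 genes was −0.27, −0.11 and −0.08 in GPT2sinc 1 to 3 and 0.13, 0.29 and 0.08 in GPT2si 1 to 3. GPT2sinc 1 and GPT2si 2 were thus the farthest apart. The count of calls in the list was 0 without GPT2si 1 or without any 1 GPT2sinc library, where 1 to 5 genes were called over the whole table, and 8 without GPT2si 3, which ended the call of HK2 (adjusted p = 0.0596). It was 20 (19 higher) without GPT2si 2, 27 (25 higher) with DESeq2 and 38 (36 higher) with GC and length offsets, where 836, 1046 and 1945 genes were called in all.

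**Figure D4:**
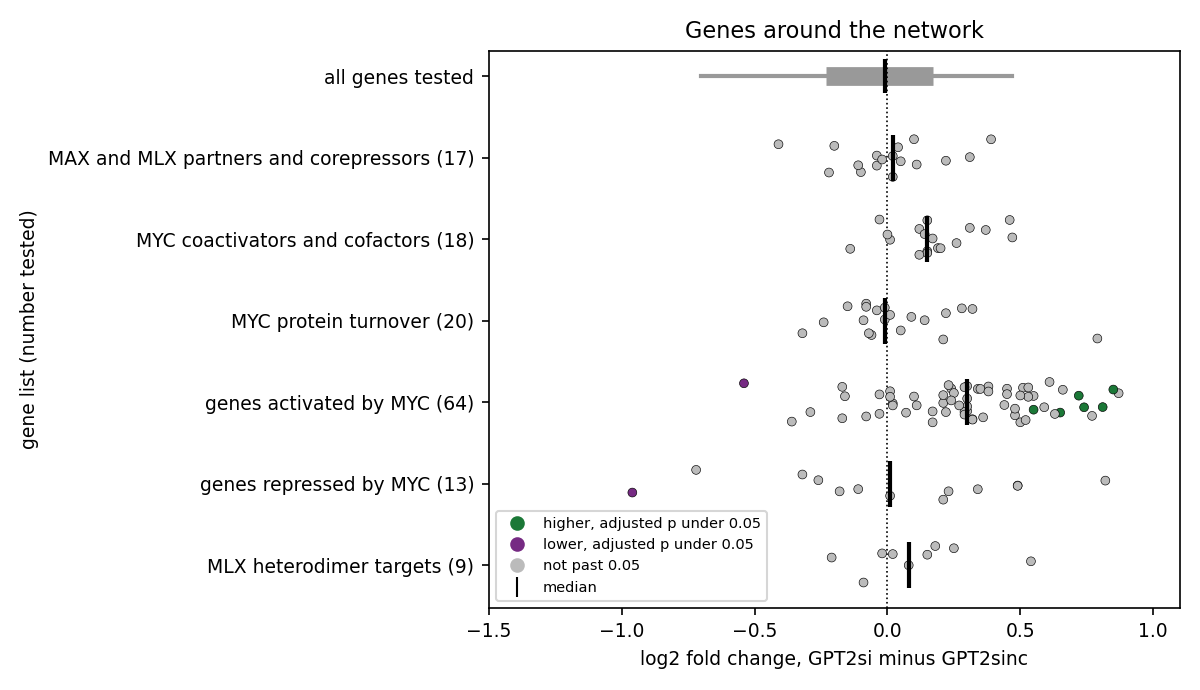
Log2 fold change of GPT2si minus GPT2sinc for the tested genes of each list (points, spread vertically for view; green where higher and purple where lower at an adjusted p under 0.05), with a line at each median; for all genes tested the thick bar spans the 25th to 75th and the thin bar the 5th to 95th percentile. The genes activated by MYC have a median of 0.30 and 6 green points, and NDRG1 is the purple point at −0.96 among genes repressed by MYC.

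Genes that MYC is known to repress had no common direction. Of 13 tested, 0 rose and 1 fell, where 0.576% and 0.841% of all genes were called. Positive values were found in 7, and the median was 0.01. At an unadjusted edgeR p under 0.05, 4 were higher and 3 lower, against 10.3% and 9.27% of all genes. The groups separated upwards in 3 and downwards in 4, against 14.9% and 13.2% of all genes. THBS1 (0.82, SE 0.24, with 41 to 121 counts per library) separated upwards and CDKN1B (−0.26, SE 0.11) downwards. NDRG1, a gene that HIF also induces, fell from 32.8, 29.9 and 20.3 CPM to 14.8, 12.4 and 15.5 CPM (−0.96, SE 0.18; adjusted p = 0.0413). Its call was lost without any 1 library other than GPT2si 2 (adjusted p = 0.0515 to 0.192), with limma-voom (0.0536) and with no low-count filter (0.095), at log2 fold changes of −0.82 to −1.14. CDKN1C, an inhibitor of cyclin-dependent kinases, was at 10.9, 8.98 and 8.23 against 5.69, 5.82 and 5.60 CPM (−0.72, SE 0.15; adjusted p = 0.0553). CDKN1C passed without GPT2si 2 (−0.75, adjusted p = 0.0361), with DESeq2 (0.00149), with the replicate block (0.0342), with GC and length offsets (0.0188) and with the filter on 1 CPM (0.0497). CDKN1A, the p21 gene and a classical target repressed by MYC, was higher in each GPT2si library instead, at 282, 338 and 365 against 414, 557 and 411 CPM (0.49, SE 0.14; adjusted p = 0.11), and it passed with DESeq2 (0.0238), with the replicate block (0.0335) and with the offsets (0.0188). CLU, which encodes the chaperone clusterin, was at 137, 157 and 156 against 198, 248 and 183 CPM (0.49, SE 0.12; adjusted p = 0.0811) and passed under the same 3 settings and without GPT2si 2 (0.33, adjusted p = 0.0382). GAS1, with at most 5 counts in any library, was not tested.

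Targets of MLX with MLXIP or MLXIPL did not pass. Of 9 tested genes 0 passed edgeR and 1 passed DESeq2 (unadjusted edgeR p under 0.05: 2 higher, 0 lower), with a median of 0.08. Among all tested genes 10.3% were higher and 9.27% lower by the unadjusted p. DESeq2 called 3.28% of them higher and 2.87% lower, and edgeR 0.576% and 0.841%. TXNIP, the best known target of MLXIP, was at 89.3, 97.5 and 97.3 against 92.7, 88.4 and 86.6 CPM (−0.09, SE 0.08). FASN, a fatty acid synthase gene shared with sterol-regulated transcription, was at 0.54 (SE 0.12; adjusted p = 0.0659). It passed without GPT2si 2 (0.38, adjusted p = 0.0238), with DESeq2 (0.0037), with the replicate block (0.0176) and with GC and length offsets (0.015). PKLR, G6PC1 and THRSP, liver genes driven by MLXIPL, had at most 2 counts in any library and were not tested.

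Of the transcripts beside the family genes, CASC11 and MYCNOS were near the count floor and PVT1 was not. PVT1, a long noncoding RNA gene next to MYC, had 506, 574 and 484 counts in GPT2sinc 1 to 3 and 608, 607 and 603 in GPT2si 1 to 3. This was 11.0, 12.4 and 11.1 against 12.1, 15.6 and 13.2 CPM, and the groups overlapped (0.24, SE 0.14; adjusted p = 0.35). CASC11 had 5 counts in each of GPT2sinc 1 and GPT2si 2 and 0 in the other libraries. MYCNOS, which overlaps MYCN on the opposite strand, had 6 counts in GPT2si 2 and 0 in the others, where a count of 0 allows up to 0.0597 to 0.0689 CPM (3 counts of the library).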

How the data were processed

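The authors deposited 1 table of raw counts, 1 row per Ensembl gene, for poly(A)-selected, strand-marked RNA libraries per the labels' protocols. The submitters' processing notes name CASAVA and StringTie and give no version or role. Not given in the sources used here are the aligner, counting program, strand setting, build and annotation. Columns were matched to libraries by name, with 0 left over. Symbols were matched for 60295 of 60564 rows, and GENCODE 29 (GRCh38) gave positions, lengths and GC content.

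Counts were fitted with edgeR 4.0.16 (R 4.3.3; quasi-likelihood F test, TMM, filterByExpr, group as the only term), with Benjamini-Hochberg adjustment over 17006 genes and a threshold of 0.05. SE came from the F statistic. CPM means are ± SD, n = 3. The centred log2 CPM values used a prior count of 2. PCR reads are not independent molecules, so a floor of 3 counts covers counting error only. The fit was tested on simulated data. No pair of libraries was a duplicate (chi-square per degree of freedom at least 7.71). Alternatives were other scaling and filters, DESeq2 1.42.0, limma-voom (limma 3.58.1), a replicate block, GC and length offsets (loess, span 0.5, for 98.9% of genes), and leaving out each library. Named genes are the members, GPT2, neighbouring transcripts, the nearest patterns and, of each list, genes with the smallest p and, in lists with under 2 calls, the most abundant. The members and lists were chosen with earlier results of these data known.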

Additional observations from a re-analysis of the deposited data

How the results depend on the processing

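Over the 10 members, MXI1 was called in 9 of 14 alternatives, MYC and MXD3 in 3 each, MAX and MXD1 in 1 each. Calls over all genes numbered 241 (40.7% higher), 44 with no low-count filter, 1046 with DESeq2 (53.3% higher) and 1945 with GC and length offsets (64.0% higher). They numbered 173 with DESeq2 size factors, 242 with upper-quartile factors, 174 with limma-voom and 249 with a filter of 1 CPM in 3 or more libraries. With 1 library left out they numbered 1 to 836 (836 without GPT2si 2, at most 109 otherwise). Members called numbered 1, and 0 with no low-count filter, 3 with DESeq2, 5 with GC and length offsets and 0 to 3 with 1 library left out. For the MAX and MLX partners the count was 0, and 3 with these offsets. For coactivators it was 0, and 2 with DESeq2, 5 with offsets and 0 to 1 with 1 library left out. For MYC turnover it was 0, and 2 with offsets. For genes activated by MYC it was 7, and 3 with DESeq2 size factors, 0 with no low-count filter, 27 with DESeq2, 3 with limma-voom, 38 with offsets and 0 to 20 with 1 library left out. For genes repressed by MYC it was 1, and 0 with no low-count filter, 2 with a filter of 1 CPM in 3 or more libraries, 4 with DESeq2, 0 with limma-voom, 5 with offsets and 0 to 3 with 1 library left out. For MLX targets it was 0, and 1 with DESeq2, 2 with offsets and 0 to 1 with 1 library left out. The cause of these shifts was not tested.

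With a replicate block the counts were 558 over all genes, 2 for coactivators, 17 for genes activated by MYC, 4 for genes repressed by MYC and 1 for MLX targets, and the member called was still MXI1. Whether the numbers pair the samples was not settled. Deviations of same-numbered libraries from their group means correlated at 0.0855, 0.114 and −0.187, and those of unlike-numbered libraries at −0.272 to 0.247. With 3 libraries per group such values cannot decide it.

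Signs of 9 named genes turned, among them GPD1 (0.25 with all libraries) and RUVBL2 (0.17), which turned without GPT2si 2. With 1 library left out, MNT lay at −0.05 to 0.01, MLX at −0.01 to 0.19, RBBP4 at −0.01 to 0.07, RUVBL2 at −0.00 to 0.27, SET at −0.15 to 0.03, GPD1 at −0.06 to 0.41, ACLY at −0.03 to 0.06, USF1 at −0.01 to 0.17 and TFEB at −0.08 to 0.13. With upper-quartile factors RBBP4 and ACLY lay at −0.02 and TFEB at −0.00. Depth limits MYCN most, at 8 to 21 counts per library.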

Other observations

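Other E-box factors with a basic helix-loop-helix leucine zipper, a list added after the results above were known, showed no call. Of 9 genes (USF1, USF2, TFEB, TFE3, TFEC, MITF, SREBF1, SREBF2 and TFAP4), 7 could be tested and 0 passed edgeR (0 also at an unadjusted p under 0.05), with a median log2 fold change of 0.15. Among all tested genes edgeR called 0.576% higher and 0.841% lower, and the median was −0.01. By the unadjusted p 10.3% were higher and 9.27% lower, so a list of this size may hold no call. SREBF2, the main regulator of cholesterol synthesis genes, was at 262, 281 and 291 CPM in the GPT2sinc libraries and at 301, 355 and 292 CPM in the GPT2si libraries (0.18, SE 0.10; adjusted p = 0.317, edgeR). SREBF1, which drives fatty acid synthesis genes, was at 282, 305 and 316 against 308, 400 and 313 CPM, with GPT2si 2 the highest. TFAP4, itself known as a gene that MYC activates, was at 43.4, 41.7 and 46.0 against 40.5, 44.1 and 36.2 CPM (−0.12, SE 0.10; adjusted p = 0.556, edgeR). USF1 and USF2, which bind the same E-box as MYC and MAX, were at 0.08 and 0.16 (SE 0.11 each).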
